A study of Mus musculus with 16 samples.

Results

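The effect of cardiotoxin on hindlimb muscle of mice with a spinal cord injury was measured by comparing 3 arrays of SCI+CDTX muscle with 4 arrays of SCI+Saline muscle, 7 of the 16 arrays of the series. All mice were female. The SCI+CDTX mice had a spinal cord injury (SCI) in the lower thoracic spine and an injection of cardiotoxin (CDTX) into the muscle, and the SCI+Saline mice had the same injury and an injection of saline, so both groups carry the SCI. Whole hamstring muscle was taken 2 days after surgery. The arrays were chosen by their labels, as SCI+CDTX replicates 1, 3 and 4 and SCI+Saline replicates 1 to 4. SCI+CDTX replicate 2 was left out, as the labels state the authors did, and its values are given beside the results where they bear on them. The other 8 arrays are Sham+CDTX and Sham+Saline, 4 each, from mice that had sham surgery in place of SCI. The labels do not say how many animals each array stands for, so adjusted p-values measure spread between arrays. That spread was pooled over the 15 arrays fitted, the 8 sham arrays included, and is not that of the 7 arrays alone.

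Cardiotoxin is a snake venom protein that breaks the membrane of muscle fibres but spares many of the satellite cells, the stem cells that rebuild the fibre. In the first days after such an injury, neutrophils and then monocytes enter the muscle, macrophages clear the dead fibres, and fibroadipogenic progenitors, the connective tissue cells of muscle, divide and lay down matrix. Per the series design, bone forms in muscle (neurogenic heterotopic ossification) only when SCI and CDTX are combined, and the SCI+Saline group is the control that lacks the muscle injury.

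The 8 SCI arrays share 1 slide and the sham arrays share another. On the SCI slide the CDTX arrays occupy the first positions and the saline arrays the rest, so array position and injection cannot be told apart. Over the 7 arrays compared, mean raw intensity was 320 to 343 and the number of probes detected (detection p under 0.05) was 13122 to 13595 in SCI+CDTX and 11555 to 12787 in SCI+Saline. The tissue label held: the fibre genes Ckm, Acta1 and Mylpf had mean levels of 13.86 to 14.18 in SCI+CDTX and 13.9 to 14.1 in SCI+Saline. Levels throughout are log2 normalized intensities, on which a probe with no signal lies a little above 4, and differences are SCI+CDTX minus SCI+Saline on the same log2 scale. The arrays of a group also differed among themselves. SCI+Saline 4 had 229 genes at least 1 log2 unit above the mean of the other saline arrays, against 32 to 59 for the other 3. It had 65 genes as far below that mean, against 44 to 149 for the other 3. SCI+CDTX 3 lay farthest from saline, with 1371 genes at least 1 log2 unit above and 1030 below the saline mean, against 800 and 375 for SCI+CDTX 1.

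Muscle given cardiotoxin after SCI held far more RNA of macrophages and dividing cells, and more of connective tissue cells and of some lymphoid genes. It held less RNA of slow fibres, mitochondria, the proteasome and genes of denervation and atrophy. Some of the lymphoid genes were kept only through their detection in SCI+CDTX, which favours genes that are higher there. Of 10952 genes, each represented by its brightest kept probe, 2420 (22.1%) were higher and 2442 (22.3%) were lower in SCI+CDTX at an adjusted p under 0.05 (limma, Benjamini-Hochberg over all kept probes). Together 44.4% of genes were called, and over the 14763 kept probes 43% were called, 20.5% higher and 22.5% lower. Larger changes were more often upward: 1043 genes (9.52%) were higher by at least 1 log2 unit and 644 (5.88%) were lower by as much. The arrays of the 2 groups did not overlap for 5101 genes (46.6%). The balance of directions differed with the processing. Of called probes, 47.6% were higher here, 64.9% after median scaling in place of quantile normalization, and 80.2% in the authors' deposited table. That table also differs in background correction and test, and was counted without the detection filter or further adjustment. The cause of these differences was not tested. Median scaling moved the median of all kept probes from -0.05 to 0.06. In whole tissue, fewer cells of a type and less RNA per cell cannot be told apart.

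**Figure D1:**
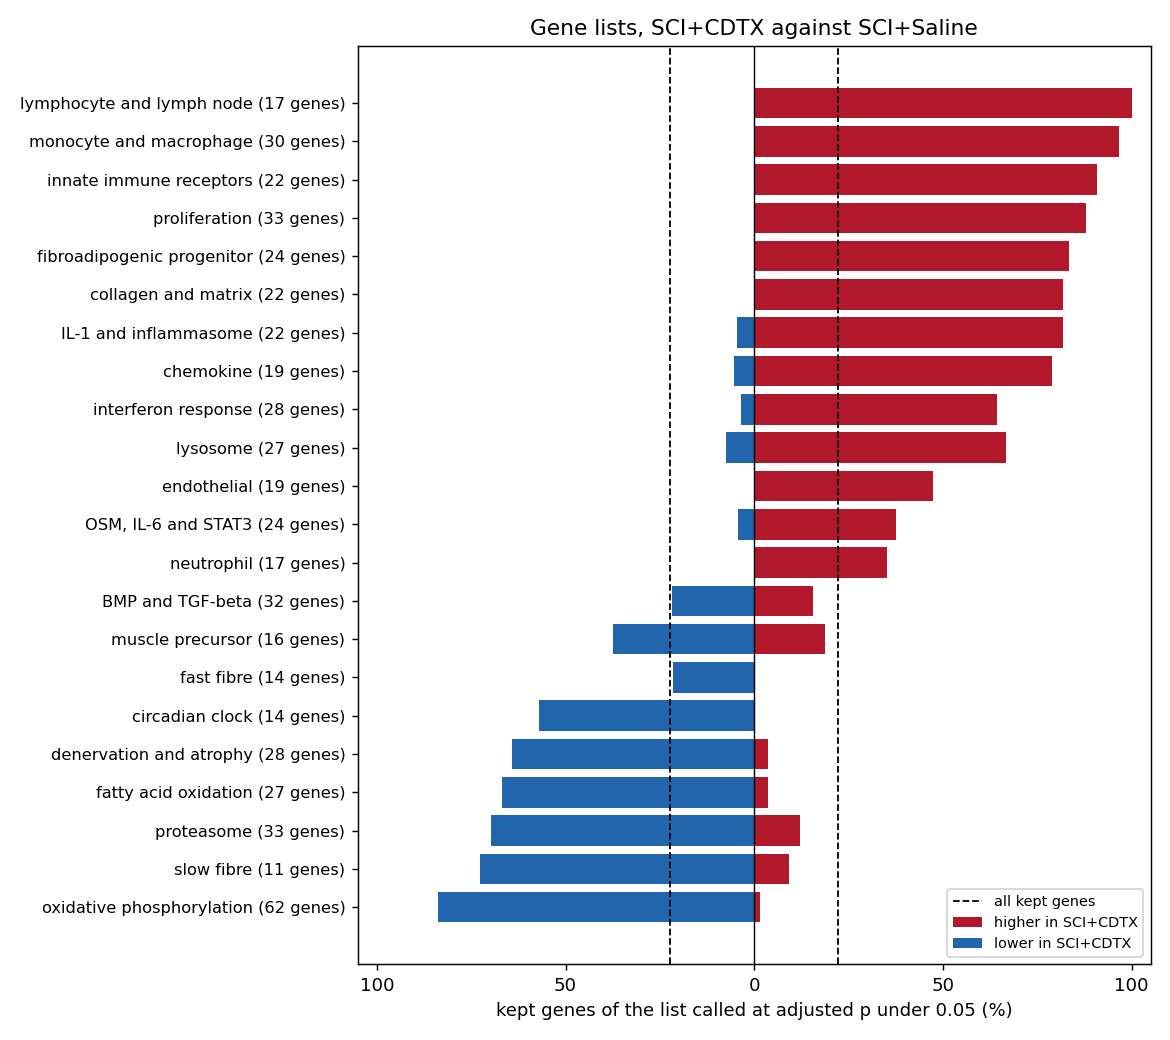
Share of the kept genes of 22 gene lists that were called higher (red, to the right) or lower (blue, to the left) in SCI+CDTX than in SCI+Saline, in percent, with the share over all 10952 kept genes as dashed lines at 22.1% and 22.3%. The lymphoid list reaches 17 of 17 genes higher, the monocyte and macrophage list 29 of 30, and the oxidative phosphorylation list 52 of 62 genes lower. Some lymphoid members passed the detection filter only through SCI+CDTX, which favours a higher call.

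Lists of marker and pathway genes are described by counts over their kept members, those detected on at least 3 of the 15 arrays fitted. A gene detected only in SCI+CDTX could pass that filter through this group alone, so the counts describe the kept members and no others. The same counts over all genes stand at 22.1% higher and 22.3% lower, with a median difference of -0.04.

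Macrophage genes were higher almost throughout. Of 34 monocyte and macrophage genes listed, 30 were kept, 29 were higher in SCI+CDTX and none was lower, with a median difference of 2.43. Lyz2, the lysozyme of phagocytes, read 12.80, 13.37 and 12.81 on SCI+CDTX 1, 3 and 4, and 8.95, 10.13, 7.81 and 10.91 on SCI+Saline 1 to 4. The groups did not overlap, but the saline arrays were widely spread, with arrays 2 and 4 high and arrays 1 and 3 low. Lyz2 rose by 3.54 ± 0.48 (standard error), 11.6-fold (limma adjusted p = 1.48e-05), and its other 2 kept probes rose by 3.12 and, for the dimmest, 0.53. Spp1, which encodes the secreted matrix protein osteopontin, read 12.88, 13.47 and 13.21 with CDTX and 8.60, 11.24, 7.54 and 11.28 with saline. Saline arrays 2 and 4 were again the high ones, and the rise was 3.52 ± 0.81 (adjusted p = 0.00176). Cd68, a lysosomal glycoprotein of macrophages, rose by 2.78, from 7.18, 8.44, 7.24 and 8.71 to 10.48, 11.16 and 10.36 (adjusted p = 6.87e-06). The phagocyte receptor gene Trem2 rose by 3.32, the lectin gene Chil3 by 3.32, Gpnmb by 3.23, the bacterial lipopolysaccharide co-receptor gene Cd14 by 2.82, the pan-macrophage marker Adgre1 by 2.68, the complement gene C1qa by 2.13, the mannose receptor gene Mrc1 by 2.12, the growth factor receptor gene Csf1r by 1.92 and the haemoglobin scavenger receptor gene Cd163 by 1.79. The fractalkine receptor gene Cx3cr1 was the lowest member, at a fitted difference of 0.12 (adjusted p = 0.67). It was detected on none of the saline arrays and on 2 of the 3 CDTX arrays, so its values lie near background in both groups.

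The summed level of the macrophage list moved with the arrays as well as with the injection. Its mean lay between 9.13 and 9.68 on the CDTX arrays and at 6.78, 7.60, 6.13 and 8.03 on SCI+Saline 1 to 4, with no overlap. The left-out SCI+CDTX 2 read 8.83 after a normalization over all 16 arrays. Genes of innate immune receptors were also mostly higher, with 20 of 22 kept genes higher, none lower and a median of 1.85. Among them were the Fc receptor subunit gene Fcer1g at 2.76, the signalling adaptor gene Tyrobp at 2.61, Tlr2 at 1.93 and the fungal glucan receptor gene Clec7a at 2.58. The top of this list was the leukocyte myosin gene Myo1f, at 9.05, 9.53 and 9.23 with CDTX and 5.02, 5.65, 4.78 and 7.21 with saline. It rose by 3.61 ± 0.41 (adjusted p = 2.6e-06), and SCI+Saline 4 was the saline array closest to the CDTX arrays. The lowest was Trem1, at 0.04 (adjusted p = 0.893), whose sign turned when single arrays were left out. Of 27 kept lysosomal genes, 18 were higher, led by Grn, the progranulin gene, at 2.79, and 2 were lower, with the acid glucosidase gene Gaa lowest at -0.80. Of 10 kept genes of MHC class II presentation, 9 were higher, led by the cathepsin gene Ctss at 2.09, and H2-Ob was lowest, at 0.32, without passing the test. Ciita, the transactivator gene of the class, was detected on no saline array and was at least 1.27-fold higher (adjusted p = 0.000896).

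**Figure D2:**
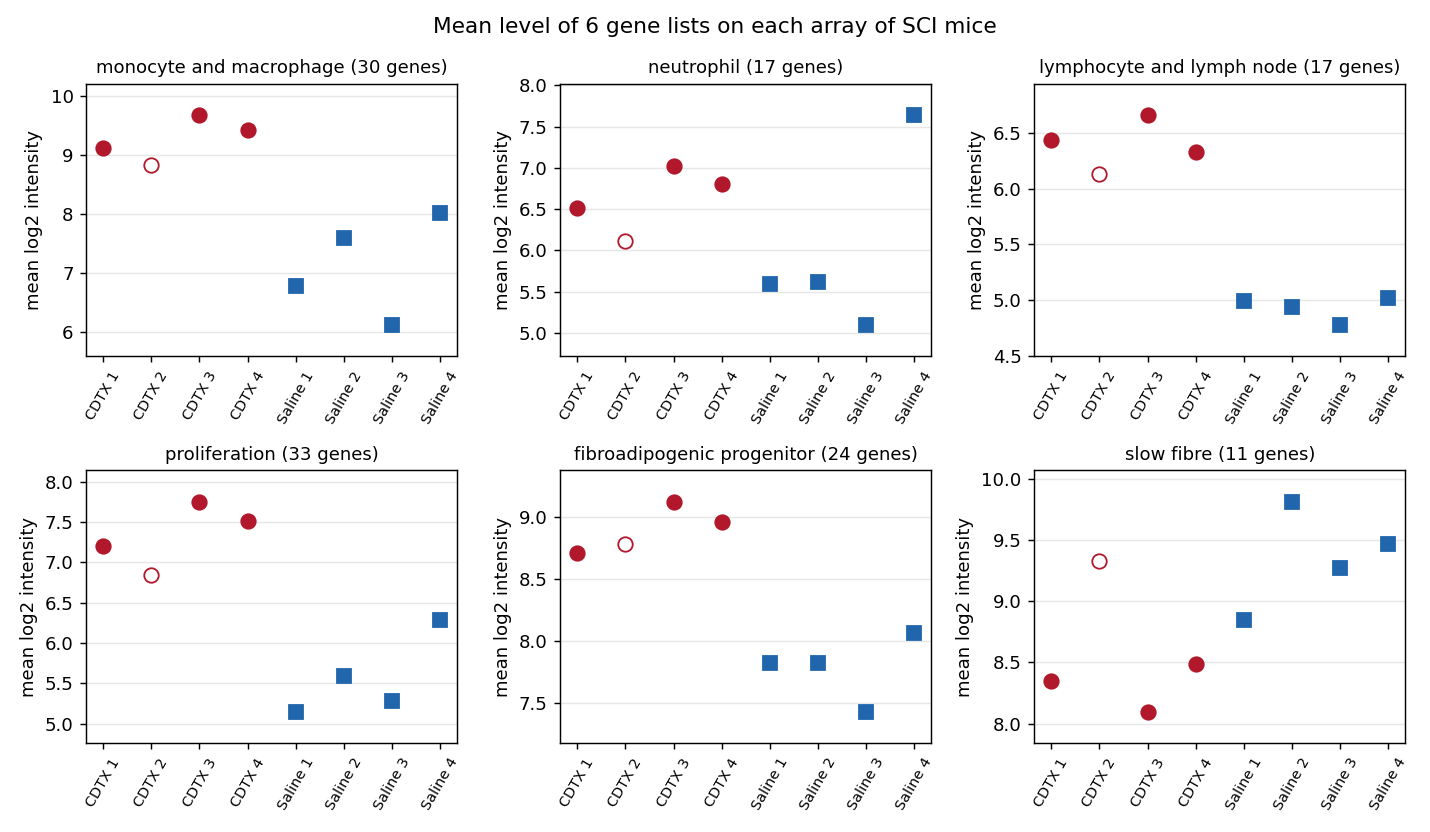
Mean log2 normalized intensity of the kept genes of 6 lists on each of the 8 arrays of SCI mice (circles SCI+CDTX, squares SCI+Saline, open circle the left-out SCI+CDTX 2, which was normalized with all 16 arrays). The monocyte and macrophage list lies at 9.13 to 9.68 on the 3 CDTX arrays and at 6.13 to 8.03 on the saline arrays, whereas the neutrophil list is highest on SCI+Saline 4, at 7.64.

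Neutrophil genes split by array and not only by injection. Of 24 listed, 17 were kept, 6 were higher and none was lower, with a median of 0.76. The lectin receptor gene Clec4d was highest, at 8.93, 9.77 and 9.24 with CDTX and 4.50, 7.11, 4.24 and 7.40 with saline, and it rose by 3.50 ± 0.57 (adjusted p = 8.25e-05). S100a9, which encodes a calcium-binding protein abundant in neutrophils, read 9.31, 10.25 and 9.58 with CDTX and 6.46, 6.68, 5.45 and 11.57 with saline. SCI+Saline 4 thus exceeded every CDTX array, and S100a9 did not pass the test (adjusted p = 0.223), but without SCI+Saline 4 it was called, at 3.51 (adjusted p = 0.0229). The granule protein genes Camp, Ltf and Elane read 9.48, 9.02 and 7.67 on SCI+Saline 4 and no more than 5.31 on any other array of the 7. Camp was the lowest of the 17, at a difference of -1.25 (adjusted p = 0.403). Without SCI+Saline 4 the list had 9 genes higher in place of 6. The part of the neutrophil RNA of this array in the other results was not tested.

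Promoters of genes that lead the account are printed here so that the reader can see the sequence upstream of a macrophage gene (Cd68), the gene with the highest difference (Glycam1), the gene with the lowest (Myl2) and an acetylcholine receptor gene that fell (Chrna9). They run from 250 bases before to 50 bases after the start of the gene, 5′ to 3′ on the gene's strand, from RefSeq on GRCm38.p6. Capitals mark GAGGAA or its complement TTCCTC, the core bound by the macrophage factor PU.1, and CAGCTG, an E-box of the kind bound by MyoD family factors. The 4 genes and both motifs were picked after the values and the matches had been seen. Cd68 lies at chr11:69666121-69666420 (minus strand), Glycam1 at chr15:103565032-103565331 (minus strand), Myl2 at chr5:122092474-122092773 (plus strand, the first of 2 starts listed) and Chrna9 at chr5:65966874-65967173 (plus strand).
Cd68: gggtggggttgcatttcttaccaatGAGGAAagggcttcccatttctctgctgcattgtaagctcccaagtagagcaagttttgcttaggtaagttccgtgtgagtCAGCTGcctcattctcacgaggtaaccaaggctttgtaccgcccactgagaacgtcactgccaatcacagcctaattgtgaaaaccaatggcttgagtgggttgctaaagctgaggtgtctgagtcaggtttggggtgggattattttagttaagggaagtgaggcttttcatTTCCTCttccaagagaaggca
Glycam1: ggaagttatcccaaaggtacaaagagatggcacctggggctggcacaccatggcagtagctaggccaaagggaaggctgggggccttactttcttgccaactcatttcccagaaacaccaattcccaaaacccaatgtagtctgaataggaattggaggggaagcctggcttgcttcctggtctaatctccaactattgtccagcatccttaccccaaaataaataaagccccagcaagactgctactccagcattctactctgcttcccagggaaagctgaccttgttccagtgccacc
Myl2: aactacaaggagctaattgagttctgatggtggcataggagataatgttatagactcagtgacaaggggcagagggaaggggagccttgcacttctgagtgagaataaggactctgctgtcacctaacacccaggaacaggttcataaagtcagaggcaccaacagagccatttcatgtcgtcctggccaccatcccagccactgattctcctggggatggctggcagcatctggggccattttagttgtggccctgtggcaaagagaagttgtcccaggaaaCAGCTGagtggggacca
Chrna9: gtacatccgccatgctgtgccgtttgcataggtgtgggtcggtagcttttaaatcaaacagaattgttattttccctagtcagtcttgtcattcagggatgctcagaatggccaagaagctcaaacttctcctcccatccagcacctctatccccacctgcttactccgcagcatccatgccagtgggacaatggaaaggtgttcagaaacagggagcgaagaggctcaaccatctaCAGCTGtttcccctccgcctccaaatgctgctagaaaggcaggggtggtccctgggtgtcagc
On either strand, GAGGAA occurred in 28.3% of all 32851 promoters in the RefSeq table, in 16 of 26 promoters (61.5%) of kept macrophage list genes, in 8 of 15 (53.3%) of kept lymphoid list genes, in 2 of 14 (14.3%) of kept slow fibre genes and in 4 of 23 (17.4%) of kept denervation and atrophy genes. CAGCTG occurred in 16.3% of all promoters, in 7 of 14 promoters (50%) of kept slow fibre genes, in 7 of 23 (30.4%) of kept denervation and atrophy genes, in 9 of 26 (34.6%) of kept macrophage list genes and in 3 of 15 (20%) of kept lymphoid list genes. The 2 motifs share no bases in the promoters shown, a match is a description of the letters, and some genes have more than 1 promoter listed.

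Inflammatory ligands rose with the macrophage genes. Of 19 kept chemokine genes, 15 were higher and 1 was lower. Ccl4, an attractant of monocytes and lymphocytes, was highest, at 8.64, 9.84 and 9.77 with CDTX and 5.42, 7.13, 4.33 and 7.49 with saline, a rise of 3.33 ± 0.50 (adjusted p = 4.36e-05). A second, dimmer probe of Ccl4 rose by 1.35. The monocyte attractant gene Ccl2 rose by 2.88, Ccl3 by 2.68, Ccl7 by 2.43 and the neutrophil attractant gene Cxcl1 by 2.04. Cxcl10, an interferon-inducible T cell attractant, went the other way, from 6.60, 6.82, 6.17 and 6.47 with saline to 5.55, 5.85 and 6.01 with CDTX. The groups did not overlap and Cxcl10 fell by 0.71 ± 0.17 (adjusted p = 0.00239), although this call was lost after median scaling.

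In the interleukin 1 pathway, 18 of 22 kept genes were higher and 1 was lower. The ligand gene Il1b read 7.24, 8.97 and 7.82 with CDTX and 4.60, 4.25, 4.29 and 5.22 with saline, where it was detected on 1 array. All CDTX arrays were above all saline arrays, SCI+CDTX 3 being the highest, and Il1b rose by 3.42 ± 0.30 (adjusted p = 4.08e-07). Il1rn, the gene of the secreted receptor antagonist, rose beside it, from 4.34, 4.74, 4.48 and 4.72 to 7.33, 8.13 and 7.67. Its groups were tight and 2.59 log2 units apart at their nearest, with a rise of 3.14 ± 0.17 (adjusted p = 1.04e-09). Among receptors and signalling genes, the decoy receptor gene Il1r2 rose by 1.28, the adaptor gene Myd88 by 1.78, the inflammatory caspase gene Casp1 by 1.91 and the pore-forming gasdermin gene Gsdmd by 2.04. The signalling receptor gene Il1r1 read -0.28 (adjusted p = 0.30), and Il18bp, which encodes the interleukin 18 binding protein, was lowest and fell by 0.54 (adjusted p = 0.0345), a call lost under several alternatives, median scaling among them. Tnf was detected on all CDTX arrays and on no saline array, and was at least 1.53-fold higher (adjusted p = 1.07e-05).

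Oncostatin M (OSM), a cytokine of the interleukin 6 family made by macrophages, acts through a receptor of OSMR and IL6ST, JAK kinases and STAT3. Of 24 kept genes of this pathway, 9 were higher and 1 was lower, with a median of 0.28. Osm read 5.82, 6.48 and 6.71 with CDTX and 4.33, 4.84, 4.23 and 5.20 with saline, and rose by 1.68 ± 0.23 (adjusted p = 1.66e-05). The receptor genes Osmr and Il6st were at 0.28 and 0.36 and did not pass the test (adjusted p = 0.322 and 0.127), although Osmr was called after median scaling, at 0.67 (adjusted p = 0.0195). Of genes that STAT3 signalling is known to induce, Socs3, a feedback inhibitor, rose by 1.58 and Timp1, an inhibitor of matrix proteases, rose by 2.93, the highest of the list. Jak1 fell by 0.71 (adjusted p = 0.00878), and was not called with all 16 arrays or after median scaling. Cish was lowest, at -1.29, without passing the test (adjusted p = 0.0656). The macrophage growth factor gene Csf1 rose by 2.30 ± 0.22 (adjusted p = 7.56e-07).

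Bone morphogenetic protein and TGF-beta genes showed no shift in one direction. Of 32 kept, 5 were higher and 7 were lower, shares below those of all genes, with a median of -0.07. After median scaling 9 were higher. Tgfb1 rose by 1.93 and the TGF-beta-induced matrix protein gene Tgfbi by 2.18, the highest member. Bmp1, which encodes a procollagen protease in spite of its name, read 9.14, 9.78 and 9.78 with CDTX and 7.40, 6.96, 7.69 and 7.97 with saline, and rose by 2.06 ± 0.22 (adjusted p = 1.59e-06). SCI+CDTX 2, at 7.07, lay among the saline arrays for Bmp1. On the falling side were the ligand genes Tgfb2 (lowest, by 1.60) and Bmp4 (by 1.15), and the receptor genes Bmpr1a (by 1.43) and Tgfbr1 (by 0.93). Acvr1, the BMP receptor gene mutated in an inherited ossifying disease, was at 0.21 (adjusted p = 0.312), and was called after median scaling, at 0.58 (adjusted p = 0.0131).

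Interferon response genes were higher in 18 of 28 kept cases and lower in 1, with a median of 0.92. Oasl2, an antiviral gene, was highest, at 8.64, 9.22 and 9.68 against 6.84, 7.09, 6.52 and 8.12, and rose by 2.04 (adjusted p = 3.99e-05). The lowest was Cxcl10, described above. Iron handling genes varied: the haptoglobin gene Hp rose by 3.02, the macrophage metal transporter gene Slc11a1 by 2.37 and the haem oxygenase gene Hmox1 by 1.20 (not called without SCI+CDTX 4), while the iron exporter gene Slc40a1 fell by 0.77, a call lost after median scaling, and the myoglobin gene Mb by 1.29. In that list 6 of 20 kept genes were higher (30%, all genes 22.1%) and 2 were lower (10%, all genes 22.3%).

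**Figure D3:**
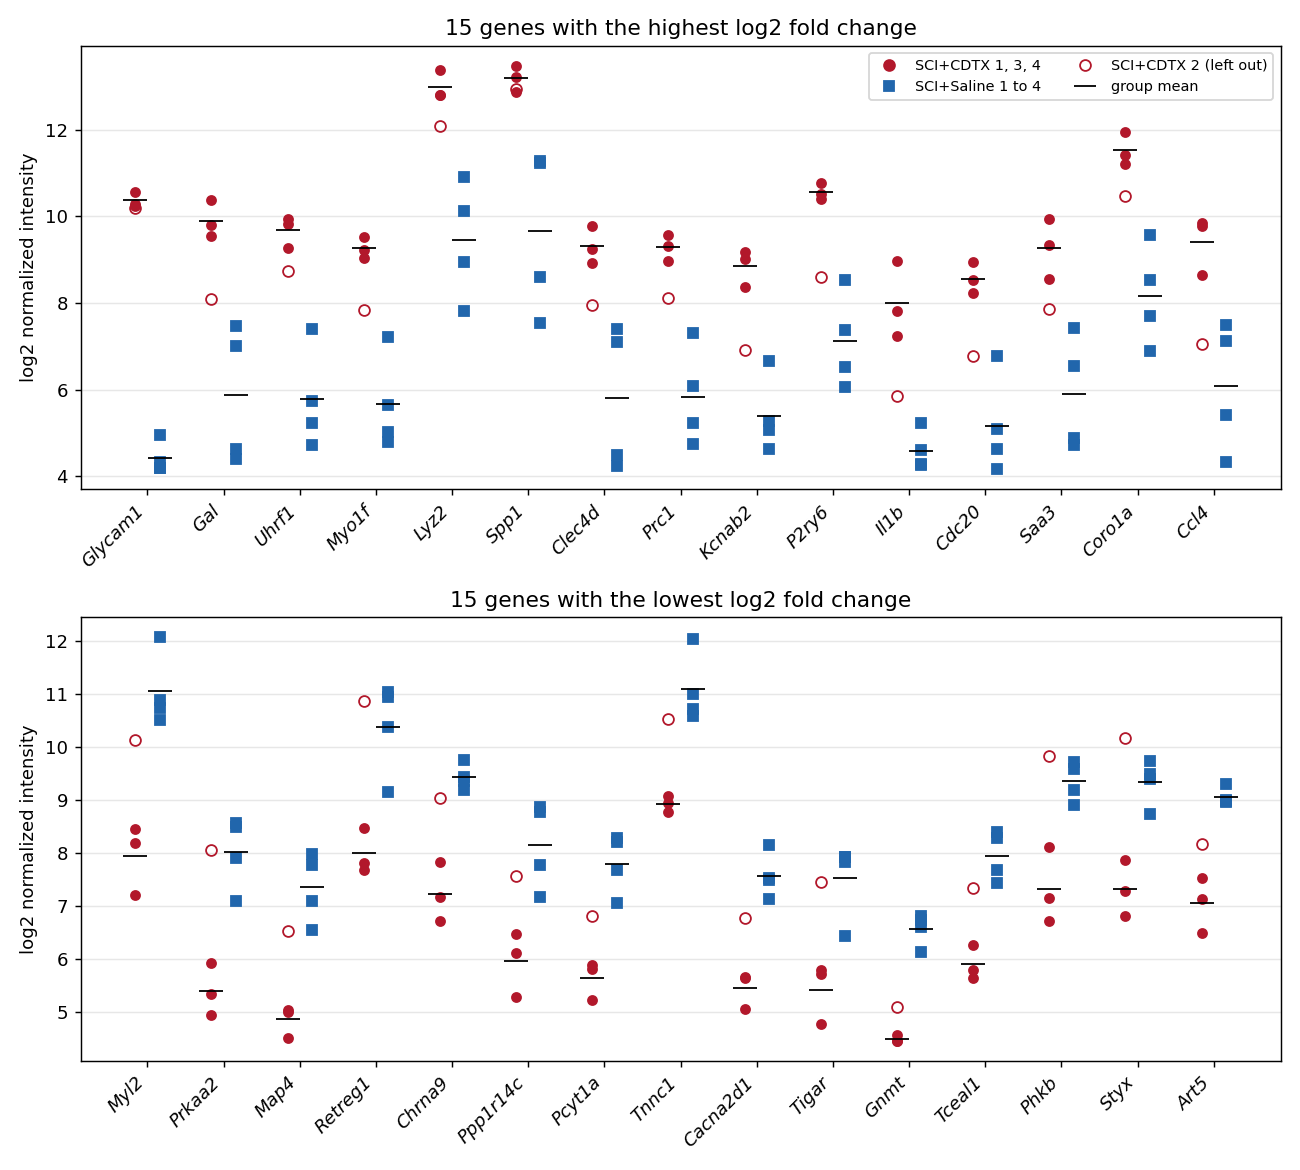
Log2 normalized intensity on each array for the 15 genes with the highest and the 15 with the lowest differences among called genes whose arrays do not overlap (filled circles SCI+CDTX 1, 3 and 4, squares SCI+Saline 1 to 4, open circles the left-out SCI+CDTX 2 from a normalization of all 16 arrays, dashes the group means). Glycam1 stands at 10.24 to 10.57 on the CDTX arrays and at 4.19 to 4.95 on the saline arrays, and Myl2 at 7.20 to 8.45 against 10.50 to 12.06.

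The gene with the highest difference of all was Glycam1, whose protein is a mucin-like ligand of L-selectin made by the high endothelial venules of lymph nodes. It read 10.28, 10.57 and 10.24 with CDTX and 4.95, 4.20, 4.32 and 4.19 with saline, where it was detected on 1 array. It rose by 5.95 ± 0.17 (adjusted p = 1.84e-14), a difference measured against saline values near background, and SCI+CDTX 2 was as high as the others, at 10.20. Other genes of lymphocytes and of lymph node stroma followed. All 17 kept of 30 listed were higher, with a median of 1.23. The arrays of 15 did not overlap between groups, against 46.6% of all genes. Glycam1, Cd3d, Cd3g and Cd3e are among members that passed the detection filter only through SCI+CDTX. The filter thus favoured members that are higher there, and the count says nothing of those not kept. Fcmr, the receptor for immunoglobulin M, read 7.02, 7.44 and 7.22 against 4.44, 4.30, 4.31 and 4.77 and rose by 2.77 (adjusted p = 6.38e-07). The cytotoxic T cell co-receptor gene Cd8b1 rose by 1.83, and the lymph node chemokine genes Cxcl13, Ccl19 and Ccl21a rose by 1.53, 1.18 and 0.79. The T cell receptor complex genes Cd3d, Cd3g and Cd3e were detected on all CDTX arrays and on no saline array, and were at least 1.73-fold, 1.54-fold and 1.64-fold higher (adjusted p = 9.75e-06, 2.69e-05 and 0.000727). The B cell gene Cd22, the lowest of the 17, was at least 1.17-fold higher (adjusted p = 0.00124). Cd4 and Ms4a1, further defining genes of T and B cells, have probes on the array that were not kept. Summed over the 17 genes, background-corrected intensity was 2879 to 4098 on the CDTX arrays and 446 to 839 on the saline arrays. Whether lymph node tissue was in the samples was not tested.

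Genes of cell division rose together. Of 40 listed, 33 were kept, 29 were higher and none was lower, with a median of 2.18. Uhrf1, which maintains DNA methylation during replication, read 9.27, 9.94 and 9.83 with CDTX and 4.73, 5.74, 5.23 and 7.40 with saline. No arrays overlapped, SCI+Saline 4 was the highest saline array, and the rise was 3.90 ± 0.50, 14.9-fold (adjusted p = 8.41e-06). The spindle gene Prc1 rose by 3.45, and Cdc20, an activator of the mitotic ubiquitin ligase, by 3.40, with its 3 further probes rising by 0.93 to 2.26. Replication licensing genes Mcm5 and Mcm6 rose by 3.14 and 2.40, the cyclin genes Ccnd1 and Ccnb1 by 2.75 and 2.36, and the topoisomerase gene Top2a by 2.36. Mcm7 was lowest, at 0.21 (adjusted p = 0.37). The list mean was 7.20 to 7.75 on CDTX arrays and 5.15, 5.59, 5.28 and 6.28 on saline arrays.

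The rest of the 15 highest genes belong to varied functions. Gal, which encodes the neuropeptide galanin, read 9.54, 10.37 and 9.80 with CDTX and 4.39, 7.01, 4.62 and 7.48 with saline. Saline arrays 2 and 4 were high and arrays 1 and 3 near the floor, and Gal rose by 4.03 ± 0.55 (adjusted p = 1.59e-05). The potassium channel subunit gene Kcnab2 rose by 3.45, the nucleotide receptor gene P2ry6 by 3.44, the acute phase gene Saa3 by 3.38 and the leukocyte actin-binding gene Coro1a by 3.35, which its 3 further probes shared with rises of 2.78 to 3.43. In all 15 genes SCI+CDTX 3 was the highest of the 3 CDTX arrays, and in 14 SCI+Saline 4 was the highest saline array.

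Connective tissue genes were higher as well. Of 24 kept fibroadipogenic progenitor genes, 20 were higher and none was lower, with a median of 1.02. Vim, the intermediate filament gene of mesenchymal cells and leukocytes, was highest, at 11.96, 12.27 and 11.89 with CDTX and 8.36, 9.31, 8.37 and 9.50 with saline, and rose by 3.16 ± 0.27 (adjusted p = 4.08e-07). The fibrillin gene Fbn1 rose by 2.35, the surface marker gene Thy1 by 2.02 and Pdgfra, the receptor gene that defines these progenitors, by 1.20. The decorin gene Dcn was lowest, at -0.33 (adjusted p = 0.271). Of 22 kept collagen and matrix genes, 18 were higher and none was lower. Bgn, which encodes biglycan, was highest, at 12.27, 12.80 and 12.63 against 9.65, 10.04, 10.04 and 10.87, and rose by 2.41 (adjusted p = 2.15e-06). Col5a1 rose by 2.41, the basement membrane gene Col18a1 by 2.09 and Col3a1 by 1.51, whereas Col1a1 was at 1.31 with overlapping groups and did not pass the test (adjusted p = 0.0535). Col12a1 was lowest, at 0.22 (adjusted p = 0.655).

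Endothelial genes were higher in 9 of 19 kept cases and lower in none, with a median of 0.47. The von Willebrand factor gene Vwf was highest, at 8.47, 8.47 and 8.63 with CDTX and 7.36, 6.51, 7.53 and 7.73 with saline, and rose by 1.24 ± 0.22 (adjusted p = 0.000195). The vessel wall gene Plvap rose by 1.23 and the tight junction gene Cldn5 by 0.82. Vegfa, the vascular growth factor gene, was lowest, at -0.44 (adjusted p = 0.107). SCI+CDTX 2 read 6.79 for Vwf and 7.39 for Cldn5, inside or below the saline range, and with all 16 arrays only 5 genes of the list were higher.

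On the lower side, slow fibre genes had a median below those of the other lists described. Slow fibres contract with their own set of myosin and troponin isoforms and rely on oxidative metabolism. Of 11 kept slow fibre genes, 8 were lower and 1 was higher, with a median of -1.32. Myl2, the slow regulatory myosin light chain gene, read 8.19, 7.20 and 8.45 with CDTX and 10.50, 12.06, 10.89 and 10.74 with saline. The groups were 2.06 log2 units apart at their nearest, SCI+CDTX 3 was the lowest array, and Myl2 fell by 3.10 ± 0.34, 8.59-fold (adjusted p = 2.29e-06). Tnnc1, the slow troponin C gene, read 8.94, 8.78 and 9.08 against 10.58, 12.03, 10.71 and 11 and fell by 2.15 ± 0.30 (adjusted p = 2.27e-05). Myl3, Myoz2, Tnnt1 and Tnni1 fell by 1.79, 1.62, 1.47 and 1.32. SCI+CDTX 2 was close to saline for these genes, at 10.13 for Myl2 and 10.53 for Tnnc1. The 1 higher gene, Tpm3, which encodes the slow tropomyosin and also non-muscle forms, had probes that disagreed: its brightest rose by 2.23 (adjusted p = 1.93e-06), the other 3 fell by 2.60 to 2.65, and the mean of its kept probes fell by 1.42 (adjusted p = 0.00127).

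Few fast fibre genes were called. Of 14 kept, 3 were lower (21.4%) and none was higher, with a median of -0.07. After median scaling 6 were lower. Myoz1, which anchors calcineurin at the Z-disc, was lowest and fell by 1.24, Casq1 fell by 0.75 and Myh2, the myosin of the oxidative fast fibres, fell by 0.65. The calls of Casq1 and Myh2 were lost under several alternatives, among them without SCI+CDTX 3 and without SCI+Saline 3, and Myh2 also with all 16 arrays. The other 11 read between -0.42 for Actn3 and 0.33 for Tnni2 and did not pass the test. Over the whole fibre list of 39 kept genes, 18 were lower and 2 were higher. Without SCI+CDTX 3 the number lower was 11.

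Genes of mitochondrial respiration fell almost throughout. Of 62 kept genes of oxidative phosphorylation, 52 were lower and 1 was higher, with a median of -0.80. Cox7b, a cytochrome oxidase subunit gene, was lowest, at 6.57, 6.25 and 7.30 with CDTX and 9.22, 8.66, 8.20 and 7.97 with saline, and fell by 1.80 ± 0.31 (adjusted p = 0.000126). Ndufb5 and Ndufb9 of complex I fell by 1.44 and 1.38, and the muscle isoform gene Cox7a1 fell by 1.37. The 1 gene that rose was Cox6a1, the non-muscle isoform of a subunit whose muscle isoform Cox6a2 fell. Cox6a1 rose by 1.03 (adjusted p = 0.00108) and Cox6a2 fell by 0.89 (adjusted p = 5.88e-05). Of 27 kept genes of fatty acid oxidation, 18 were lower, with the muscle fatty acid binding gene Fabp3 lowest at -1.36, and 1 was higher, the lipoprotein lipase gene Lpl at 1.19.

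Glycolysis and glycogen genes divided evenly, with 8 of 27 kept genes higher and 8 lower (29.6% each, all genes 22.1% and 22.3%). Those higher included isoforms that are widely expressed outside muscle, such as Eno1 (highest, by 1.89), Pgam1 (by 1.82) and the glucose transporter gene Slc2a1 (by 1.42). Those lower included Prkaa2, Phkb and Ugp2. Prkaa2, the catalytic subunit of AMP-activated kinase that predominates in muscle, read 5.93, 4.94 and 5.34 with CDTX and 8.56, 8.49, 7.90 and 7.10 with saline. It fell by 2.61 ± 0.40 (adjusted p = 4.54e-05), its second probe fell by 1.32, and SCI+CDTX 2 read 8.06, among the saline arrays. Phkb, a phosphorylase kinase subunit gene, fell by 2.03 and Ugp2, which makes the sugar donor for glycogen, by 1.77. After median scaling 14 genes of this list were lower, and without SCI+CDTX 3 or without SCI+CDTX 4 the number was 5.

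Of the other genes among the 15 lowest, the microtubule-associated protein gene Map4 read 5.01, 4.51 and 5.04 against 7.98, 7.78, 7.10 and 6.54 and fell by 2.50 (adjusted p = 2.35e-05). Retreg1, a receptor for autophagy of the endoplasmic reticulum, fell by 2.39, Ppp1r14c, a phosphatase inhibitor gene, by 2.19, and Pcyt1a, the regulatory enzyme of phosphatidylcholine synthesis, by 2.16. The calcium channel subunit gene Cacna2d1 fell by 2.12, the sugar bisphosphatase gene Tigar by 2.10, the methyltransferase gene Gnmt by 2.08, Tceal1 by 2.05, the pseudophosphatase gene Styx by 2.02 and the ADP-ribosyltransferase gene Art5 by 2.00. A second, dimmer probe fell by 0.80 for Gnmt, by 0.73 for Phkb and by 1.18 for Tceal1. SCI+CDTX 2 read 10.17 for Styx and 9.82 for Phkb, above every saline array, and 10.87 for Retreg1, within the saline range. With all 16 arrays Styx fell by 1.31 (adjusted p = 0.035). In all 15 of the lowest genes SCI+CDTX 3 was the lowest array, for Gnmt tied with SCI+CDTX 4 at 4.46. In 12 SCI+Saline 4 was the lowest saline array. Gnmt was detected on 1 of the 3 CDTX arrays, so its fall is measured against values near background.

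Genes that muscle raises after loss of nerve input, or during atrophy, were mostly lower in SCI+CDTX than in SCI+Saline. Of 28 kept, 18 were lower and 1 was higher, with a median of -0.59. Without SCI+CDTX 4 the number lower was 11. Chrna9, an acetylcholine receptor subunit gene, read 7.83, 6.71 and 7.17 with CDTX and 9.43, 9.75, 9.19 and 9.36 with saline. Saline arrays were tight and all above the CDTX arrays, and Chrna9 fell by 2.20 ± 0.26, 4.59-fold (adjusted p = 4.36e-06). Musk, the kinase gene that organizes the neuromuscular synapse, read 6.07, 5.58 and 5.78 against 7.45, 7.47, 7.20 and 7.18 and fell by 1.51 ± 0.15 (adjusted p = 1.07e-06). Over the neuromuscular junction list, 5 of 16 kept genes were lower (31.2%, all genes 22.3%), Musk lowest at -1.51. In the same list 3 were higher (18.8%, all genes 22.1%), with the intermediate filament gene Nes highest at 1.33. Without SCI+CDTX 3 the counts were 3 lower and 2 higher, and with all 16 arrays they were 3 lower and 1 higher. The synaptic scaffold gene Rapsn fell by 1.01, while the receptor subunit genes Chrna1 and Chrng were at -0.30 and 0.10 and did not pass the test (adjusted p = 0.138 and 0.822), the sign of Chrng turned under several alternatives, and Chrna1 was called after median scaling, at -0.50 (adjusted p = 0.0227). Of the atrophy ubiquitin ligases, Trim63 fell by 1.51 and Fbxo32 by 1.33, and Foxo1, the factor known to induce them, fell by 1.10. The ligase gene Cblb rose by 0.62 (adjusted p = 0.00623), the highest of the list.

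Proteasome genes fell with the atrophy ligases. Of 33 kept, 23 were lower and 4 were higher, with a median of -0.65. Psmd6, a subunit of the regulatory cap, was lowest, at 7.51, 6.45 and 7.60 with CDTX and 9.45, 9.06, 8.88 and 8.25 with saline, and fell by 1.72 ± 0.28 (adjusted p = 7.47e-05). SCI+CDTX 2 read 10.38, above every saline array, and Psmd6 was no longer called with all 16 arrays. The 4 genes that rose were Psmb10 (by 1.31), Psmb9 (by 1.20), Psmb8 (by 1.02) and Psme1 (by 0.46, not called with all 16 arrays), the first 3 being the catalytic subunits of the immunoproteasome, which leukocytes express and interferon induces. Circadian clock genes were lower in 8 of 14 kept cases and higher in none, with a median of -0.69, and the clock repressor gene Ciart fell by 1.52. With all 16 arrays 5 were lower. Per1 was the highest of that list, at -0.10 (adjusted p = 0.791), and its sign turned after median scaling.

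Muscle precursor genes were mixed. Of 16 kept, 6 were lower (37.5%, all genes 22.3%) and 3 were higher (18.8%, all genes 22.1%). The myogenic factor gene Myog, which drives differentiation, read 8.84, 8.65 and 8.61 with CDTX and 9.77, 9.39, 9.73 and 9.95 with saline and fell by 1.01 ± 0.20 (adjusted p = 0.000491). Myf6 fell by 1.16, and Actc1, the cardiac actin of developing and regenerating fibres, was lowest and fell by 1.21. Myod1, which marks activated satellite cells, was at -0.46 and did not pass the test (adjusted p = 0.144). The adhesion gene Vcam1 was highest and rose by 1.35. Among intermediate filament genes, Krt18 and Krt8, keratin partners, fell by 1.93 and 1.60, with Krt18 at 8.16, 7.33 and 6.95 against 9.54, 9.36, 9.83 and 8.93. In that list of 11 kept genes 5 were higher and 4 were lower, Vim being highest and Krt18 lowest.

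The same injection in sham mice gives the setting for these values, although the sham arrays lie on another slide and no samples are shared. Over all genes 23.9% were higher and 26.9% lower in Sham+CDTX than in Sham+Saline, and the difference of the 2 effects (SCI minus sham, the interaction in the same limma fit) was called for 25.7% of genes. It was called positive for 1527 of the 10952 genes and called negative for 1285. Over probes it was called for 3507, for 1576 with SCI+CDTX 2 included at full weight, and for 3814 with it included under array weights. Of the 15 highest genes, 14 were also called higher in sham mice and 3 had a called interaction. Of the 15 lowest, 5 were called lower in sham mice and 11 had a called interaction. Both sets were picked by their difference in SCI mice, which is part of the interaction. The choice thus favours an interaction of the same sign. With all 16 arrays at equal weight the interactions of Prkaa2, Map4, Retreg1, Ppp1r14c, Pcyt1a, Phkb and Styx were not called. Among the highest, that of Kcnab2 was not called either. Slide and surgery cannot be told apart, but each effect was taken within 1 slide.

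Macrophage genes rose in both settings, in sham mice for 28 of 30 genes with a median of 3.08. The interaction was negative for 8 of them and positive for 2, with Gpnmb at 3.23 in SCI and 5.98 in sham mice (interaction -2.75, adjusted p = 0.000258) and Cd68 at 2.78 and 4.64. Cd14 and Cd163 were the positive cases. Of 11 slow fibre genes, 8 were lower in SCI and 9 in sham mice, with Myl2 at -3.10 and -2.32 and an interaction of -0.78 ± 0.47 that did not pass the test (adjusted p = 0.256). Lymphoid genes differed: 12 of 17 had a positive interaction, 2 were called higher in sham mice, and Glycam1 was detected on none of the 8 sham arrays. Some of the 17 were kept only through SCI+CDTX, which favours a positive interaction. Il1b was detected on all 4 Sham+CDTX arrays and on no Sham+Saline array, at means of 5.07 and 4.30. Its fitted interaction was 2.64 (adjusted p = 0.000144), with saline values at background in sham mice and on 3 of 4 arrays of SCI mice.

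Endothelial and denervation genes also had many called interactions. In sham mice 9 of 19 endothelial genes were lower and 1 was higher, and 12 had a positive interaction, with Cldn5 at -2.10 in sham and 0.82 in SCI mice. Of the 28 denervation and atrophy genes, 10 were higher and 3 lower in sham mice, and 14 had a negative interaction. Ankrd1, a stress-induced gene of muscle, rose by 3.33 in sham mice and fell by 1.04 in SCI mice (interaction -4.37, adjusted p = 1.97e-06). Chrna9 rose by 0.86 and Musk by 0.56 in sham mice, against falls of 2.20 and 1.51. Myod1 and Myog rose by 2.23 and 1.12 in sham mice. Of the 33 proteasome genes, 11 were higher in sham mice and 17 had a negative interaction. 

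**Figure D4:**
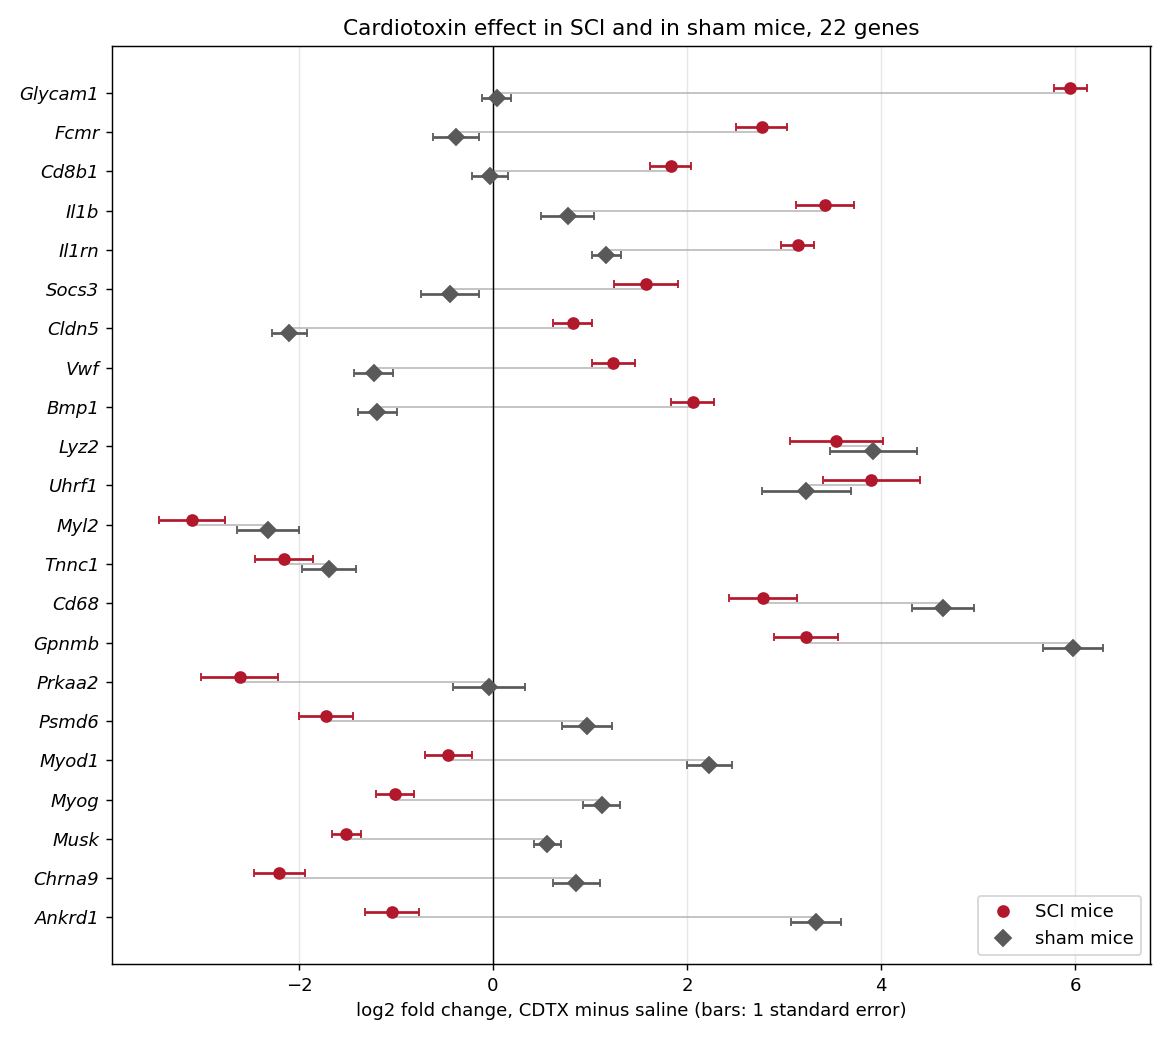
Log2 fold change, cardiotoxin minus saline, with 1 standard error, in SCI mice (circles, 3 against 4 arrays) and in sham mice (diamonds, 4 against 4 arrays) for 22 genes chosen after their values were seen. Lyz2, Uhrf1, Myl2 and Tnnc1 lie close together in both, Glycam1, which no sham array detected, stands at 5.95 in SCI mice, and Ankrd1 at -1.04 against 3.33.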

How the data were processed

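RNA of hamstring muscle was hybridized to Illumina mouse BeadChips, 1 array per sample. The deposited non-normalized table gives, per the file headers, an average intensity per probe and array and a detection p-value, summarized by the authors in GenomeStudio 2011.1 per the submitters' processing notes. A second deposited table, used as an alternative, holds the authors' group mean intensities after average normalization and, by its analysis name, background subtraction, with a difference p-value, per the file headers. The genome build behind the probe annotation is not given in the sources used here. A further 48 per-sample columns (bead statistics) were left unused, and 1 array, SCI+CDTX 2, was left out of the fit.

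Intensities were corrected by normexp from the detection p-values, quantile normalized with an offset of 16 and taken to log2 (neqc). Probes detected at p under 0.05 on at least 3 of 15 arrays were kept, 14763 of 25697. Limma 3.58.1 in R 4.3.3 fitted 4 group means, with Benjamini-Hochberg adjustment over all kept probes. The fit was tested on simulated data with few changed probes and independent noise on normalized values. That test did not cover normalization or changes as broad as those found here. A gene is represented by its brightest kept probe, and symbols were updated through RefSeq by Entrez ID for 23681 probes. Where SCI+CDTX or SCI+Saline was detected on no array, their difference is given as a bound ("at least") from the lowest detected signal, where that bound is above 1-fold. Values for sham mice and interactions are fitted values without such bounds.

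The genes named are the 15 highest and 15 lowest differences among called genes with no overlap between groups, and members of 40 gene lists, each described list with its highest and lowest member, apart from an item that is not reported here. The members and lists were chosen with earlier results of these data known. Alternatives were median scaling, no background correction, another offset, other detection filters, all 16 arrays with and without array weights, the 7 arrays alone, another variance model, a replicate block, the mean of a gene's probes, the authors' table, and leaving out each array. The number of arrays limits the precision.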

Additional observations from a re-analysis of the deposited data

Results flagged for a closer look

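For 78 of the genes named, the cardiotoxin effect after SCI differed from that after sham surgery by the interaction in the limma fit at an adjusted p under 0.05, 34 positive and 44 negative. All values are SCI minus sham on the log2 scale. At least 1 group was detected on no array for Cd3d, Cd3e, Cd3g, Cx3cr1, Cxcl10, Fcmr, Glycam1, Il1b, Il1rn, Krt18 and Osm, so their interactions are measured against background. Among negative interactions that were also called, in the same direction, with all 16 arrays were Ankrd1 -4.37, Chrna9 -3.06, Gpnmb -2.75, Myod1 -2.68, Ctss -2.68, Chrng -2.40, Krt18 -2.27, Krt8 -2.23, Cxcl10 -2.16, Tgfbr1 -2.15, Myog -2.13, Musk -2.08, Tceal1 -2.05, Cx3cr1 -1.88, Hmox1 -1.87, Cd68 -1.86, Gnmt -1.79, Chrna1 -1.75, Per1 -1.73, Ciart -1.58 and Art5 -1.38. Negative interactions called without SCI+CDTX 2 but not with all 16 arrays at equal weight were Psmd6 -2.70, Prkaa2 -2.57, Retreg1 -2.30, Map4 -2.21, Cox7b -2.20, Phkb -2.18, Ccl7 -2.09, Styx -2.07, Ppp1r14c -1.70, Ndufb9 -1.65, Pcyt1a -1.63, Ndufb5 -1.50, Ugp2 -1.37, Myf6 -1.32, Myoz1 -1.18, Csf1r -1.08, Jak1 -1.08, Bmpr1a -1.0, Vcam1 -0.99, Tgfb2 -0.97, Dcn -0.87, Bmp4 -0.87 and Foxo1 -0.85.

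Positive interactions that were also called with all 16 arrays were Cd3g 0.86, Myoz2 0.91, Vegfa 1.04, Fbn1 1.12, Cd3d 1.22, Cxcl13 1.29, Ccl19 1.29, Cd163 1.41, Plvap 1.44, Slc2a1 1.82, Cd8b1 1.86, Col18a1 1.97, Il1rn 1.97, Socs3 2.02, Vwf 2.46, Il1b 2.64, Cldn5 2.92, Fcmr 3.15, Bmp1 3.25 and Glycam1 5.91. Positive interactions called without SCI+CDTX 2 but not with all 16 arrays at equal weight were Myd88 0.72, Cd3e 0.77, Lpl 0.86, Psmb10 0.91, Gsdmd 0.92, Il1r2 0.95, Osm 0.95, Ccnd1 0.99, Bgn 1.15, Cd14 1.18, Hp 1.46, Csf1 1.64, Col5a1 1.69 and Kcnab2 1.91. In all, 41 of the 78 were called in the same direction with all 16 arrays. Slide and surgery cannot be told apart.

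In SCI+Saline, 1 array lay far from the other 3 for 8 of the 169 genes named. Chance alone gives this in about 1 of 20 groups. The genes named were chosen and some belong to the same gene list, as Camp and Elane do, so they are not independent groups. Whether the number differs from chance was not tested. SCI+Saline 1 was high for Glycam1 at 4.95, Cd8b1 at 5.02 and Ciita at 4.62. SCI+Saline 4 was high for Camp at 9.48, Elane at 7.67 and Slc40a1 at 8.24, and low for Tigar at 6.43. SCI+Saline 2 was high for Art5 at 9.29.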

How the results depend on the processing

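The number of called probes, 6349, lay between 4724 (without SCI+CDTX 3) and 6670 (without SCI+Saline 4) when single arrays were left out, and was 5252 with all 16 arrays. The share of called probes that were higher, 47.6%, lay between 47.0% and 49.9% without single arrays and was 64.9% after median scaling. It was 80.2% in the authors' deposited table, where 4835 probes had a difference p under 0.05, counted without the detection filter or further adjustment. The interaction was called for 3507 probes, for 2789 to 3851 without single arrays, for 1576 with all 16 arrays, for 3814 with all 16 under array weights and for 4743 after median scaling. The cause of these shifts was not tested. With the replicate number as a block 5846 probes were called. Deviations of same-numbered arrays correlated at 0.0879, -0.248 and -0.0686. These are too few pairs to tell whether the numbers pair the arrays.

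Of 143 called genes among the 169 named, 131 kept call and direction under every alternative that gave them a value. The stricter filter gave 162 of the 169 a value, and the authors' table was compared by counts only. Calls were gained under at least 1 alternative by Acvr1, Actn3, Chrna1, Cish, Col1a1, Dcn, H2-Ob, Myod1, Osmr, S100a9, Tnni2 and Vegfa. Signs turned for Chrng (-0.19 with all 16 arrays, -0.02 with the block, and -0.12 to 0.38 without single arrays), Per1 (0.06 after median scaling, and -0.27 to 0.16 without single arrays), Trem1 (-0.05 to 0.13 without single arrays), Elane (-1.06 to 0.04), Ltf (-1.24 to 0.34), Ckm (-0.02) and Mylpf (-0.03) after median scaling, and Tpm3 (-1.42 as the mean of its kept probes). None of these but Tpm3 was called. A second probe had the same direction for 91.2% of 1422 called genes that have one, and for 74.1% of 887 genes with a called interaction. Probes near background limit the folds of dim genes.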
